A study of Homo sapiens with 4 samples.

Results

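The promoter flanks of coding genes are the called regions that lie between 1 and 3 kb from an annotated transcript start of a protein-coding gene, on either side of it. They were taken from the authors' annotation, as every region placed in the promoter class of 1-2 kb or of 2-3 kb whose gene type was protein-coding. Of 29302 regions in all, 1788 met this rule, 972 in the 1-2 kb class and 816 in the 2-3 kb class, and they were assigned to 1652 genes. No read number or ratio entered the choice. The class was set by the region edge nearest the start, while positions below are those of the region midpoint. A region was called upstream when its midpoint lay before the start in the direction of transcription, which held for 925 regions, and downstream when it lay past the start, which held for 863.

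The data came from ChIP-seq in T98G, an established human glioblastoma cell line. Cells with an empty vector and cells that overexpressed LGP2 were profiled, each with 1 ChIP library and 1 input library, so that 4 samples made 4 groups of 1. LGP2, encoded by DHX58, belongs with RIG-I and MDA5 to the helicases that sense viral RNA in the cytosol, and by its title the series asked what it does in glioma. Both column names carry the name of the vector pCW, and the sources used here do not say what that vector holds beyond LGP2 or how expression was switched on. The study lists the vector libraries with its data on crotonylated lysine, while for the LGP2 library the sources used here name no antibody. The input libraries were not analysed here. Each condition rests on 1 library, so no test between conditions was possible, and the intervals below cover counting error only.

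As background, the stretch around a transcript start holds the core promoter, where the transcription machinery assembles, and the flanking kilobases, where the first nucleosomes, proximal regulatory elements and, on the downstream side, the first exon and intron lie. Many human promoters overlap CpG islands, in which the dinucleotide CG is frequent. A coding gene often has several annotated transcripts, some of them without a reading frame, and each has its own start, so that a flank can lie deep inside the gene. Lysine crotonylation of histones is an acylation that is found at active promoters and enhancers.

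Promoter windows of 6 genes are shown to give the sequence that these flanks lie beside. A script took them from RefSeq (GRCh38.p14), each 250 bases before to 50 bases after a gene start, 5′ to 3′ on the strand of the gene, with CG dinucleotides in capitals. They belong to genes from the rule for named regions, stated further on, whose annotated start fell on the RefSeq start. The first pair has the flank upstream, with reads from the LGP2 library alone (ALLC, chr2:3657950-3658249, plus strand) or from the vector library alone (DEFB115, chr20:31257414-31257713, plus strand).
ALLC: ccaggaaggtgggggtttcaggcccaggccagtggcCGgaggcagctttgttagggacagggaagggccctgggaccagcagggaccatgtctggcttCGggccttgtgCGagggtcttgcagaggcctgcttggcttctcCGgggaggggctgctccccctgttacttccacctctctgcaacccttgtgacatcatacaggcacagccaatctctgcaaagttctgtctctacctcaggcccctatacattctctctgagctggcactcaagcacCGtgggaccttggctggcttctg
DEFB115: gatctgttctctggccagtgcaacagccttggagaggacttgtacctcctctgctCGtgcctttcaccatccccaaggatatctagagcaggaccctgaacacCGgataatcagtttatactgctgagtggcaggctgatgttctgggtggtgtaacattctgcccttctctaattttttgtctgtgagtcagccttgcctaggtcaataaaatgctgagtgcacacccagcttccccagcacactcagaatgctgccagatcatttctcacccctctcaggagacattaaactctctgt
The next pair has the flank downstream, called with LGP2 for CDKN2AIPNL (chr5:134411832-134412131, minus strand) and with the vector for RBM15B (chr3:51391035-51391334, plus strand).
CDKN2AIPNL: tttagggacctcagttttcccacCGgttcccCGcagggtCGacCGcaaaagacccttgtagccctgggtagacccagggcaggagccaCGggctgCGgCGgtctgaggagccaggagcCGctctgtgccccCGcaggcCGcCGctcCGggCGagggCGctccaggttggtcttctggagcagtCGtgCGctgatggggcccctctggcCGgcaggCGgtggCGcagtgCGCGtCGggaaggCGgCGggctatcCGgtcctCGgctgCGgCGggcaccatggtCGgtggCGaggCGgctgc
RBM15B: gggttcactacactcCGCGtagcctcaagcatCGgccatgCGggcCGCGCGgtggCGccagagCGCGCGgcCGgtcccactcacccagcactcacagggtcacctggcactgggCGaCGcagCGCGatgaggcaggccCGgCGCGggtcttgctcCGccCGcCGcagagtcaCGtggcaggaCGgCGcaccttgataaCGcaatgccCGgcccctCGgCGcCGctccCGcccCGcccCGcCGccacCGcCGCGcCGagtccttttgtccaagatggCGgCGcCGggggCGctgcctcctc
The last pair has a flank region called in both libraries, upstream of IGDCC4 (chr15:65422898-65423197, minus strand) and downstream of TNP2 (chr16:11269276-11269575, minus strand).
IGDCC4: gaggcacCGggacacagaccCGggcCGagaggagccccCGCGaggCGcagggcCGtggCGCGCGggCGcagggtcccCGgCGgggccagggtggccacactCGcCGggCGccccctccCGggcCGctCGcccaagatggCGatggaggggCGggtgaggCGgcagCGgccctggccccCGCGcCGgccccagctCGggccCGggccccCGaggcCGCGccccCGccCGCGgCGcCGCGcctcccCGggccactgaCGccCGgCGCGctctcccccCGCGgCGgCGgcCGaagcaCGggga
TNP2: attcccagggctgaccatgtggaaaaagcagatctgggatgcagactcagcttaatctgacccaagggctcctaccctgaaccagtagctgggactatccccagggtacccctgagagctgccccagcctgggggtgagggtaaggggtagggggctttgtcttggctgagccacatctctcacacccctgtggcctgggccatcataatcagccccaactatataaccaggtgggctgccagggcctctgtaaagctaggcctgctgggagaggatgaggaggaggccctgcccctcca

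These windows held 5, 2, 31, 42, 48 and 0 CG dinucleotides in the order shown. Regions called with either library therefore lay beside starts with many CG and starts with few. Among these 6, the motif TATAAA or its reverse complement TTTATA was present in the window of DEFB115 alone. In all, 353 flank regions were assigned to a start within 100 bp of a RefSeq start that has such a window. A window was counted for each of its flank regions. The median window of these flanked starts held 13 CG, against 21 for all 22198 RefSeq coding windows, and 43.9% of them held fewer than 10, against 29.9% of all. Starts with a core region, within 1 kb, had a median of 14 (n = 276). The median was 13 for LGP2-only flanks (n = 204) and 15 for vector-only flanks (n = 147). TATAAA on either strand occurred in 12.5% of flanked windows and in 9.47% of all windows.

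A flank region by definition lies outside most such windows, and 6 of the 1716 flank regions on the chromosomes with windows overlapped one. In 1 case, SPRR1A, which encodes a small proline-rich protein of the cornified envelope, the window was that of the gene itself. The region lay 1372 bp before another annotated start of SPRR1A and overlapped 193 bases of the RefSeq promoter (chr1:152983831-152984023, plus strand, CG in capitals), shown because it is the sequence under a flank region.
SPRR1A: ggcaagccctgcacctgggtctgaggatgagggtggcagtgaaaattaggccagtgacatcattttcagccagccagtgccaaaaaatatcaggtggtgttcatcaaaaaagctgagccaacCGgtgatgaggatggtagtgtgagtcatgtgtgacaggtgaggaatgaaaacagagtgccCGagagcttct
It was called with LGP2 only, although the LGP2 library had 3 reads and the vector library 5.

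Along the start, called regions were denser near the start itself than in the flanks. In the first 250 bp downstream of the start there were 171 LGP2-only regions and 87 vector-only regions. From 1250 to 3000 bp on either side, each 250 bp held 56 to 83 LGP2-only regions and 33 to 55 vector-only regions. LGP2-only regions outnumbered vector-only regions in each of these flank intervals, beside an LGP2-only share of 54.9% over all regions. In the next interval, from 3000 to 3250 bp, there were 40 LGP2-only and 29 vector-only regions upstream. Downstream that interval had 29 and 31.

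**Figure D1:**
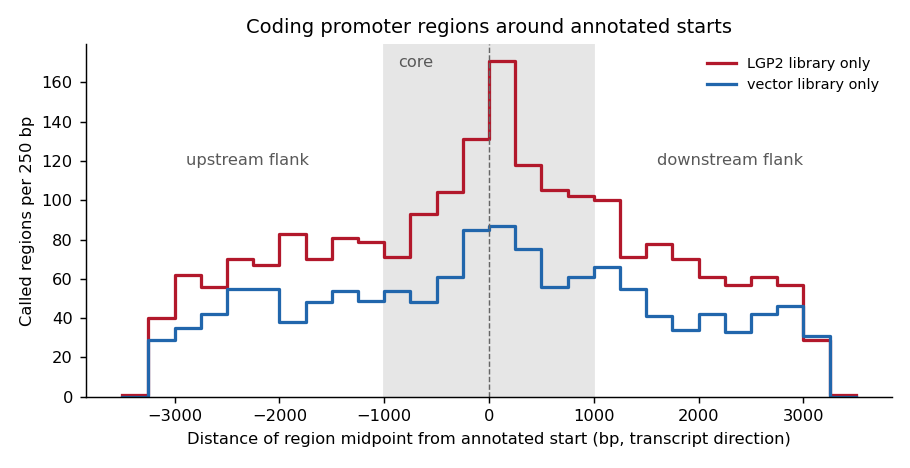
Number of called regions per 250 bp (y axis) against the distance of the region midpoint from the annotated start in base pairs (x axis, negative upstream), for coding promoter regions called with LGP2 only (red) and with the vector only (blue). The grey band marks 1 kb to each side of the start, and the lines peak at 171 and 87 regions just downstream of it and stay between 56 and 83, and between 33 and 55, from 1250 to 3000 bp.

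Of the 1788 flank regions, 1075 were LGP2-only, meaning that the LGP2 library alone gave a call, 709 were vector-only and 4 were called in both. Over all 29302 regions the corresponding shares were 54.9%, 44.9% and 0.27%. Among flank regions called in 1 library, the LGP2-only share was 60.3% (95% exact interval 57.9 to 62.5), against 54.7% (54.1 to 55.3) for the regions outside the flanks. The odds ratio was 1.26 (1.14 to 1.39). Core promoters of coding genes, with 1631 regions, had an LGP2-only share of 62.3% (59.9 to 64.7), and the flanks did not differ from them beyond counting error (odds ratio 0.917, 0.796 to 1.05). The sources used here do not say how an input entered the calling of either library, so the shares compare groups of regions within the table rather than the conditions.

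The excess over other regions was smaller where gene density was held alike. The median flank region had 12 RefSeq coding genes within 500 kb of it, against 5 for regions outside the flanks and 13 for core promoters. A gene was placed by its lower coordinate, whatever its strand, and the gene of the region itself could be counted. LGP2-only flanks had a median of 13 such genes and vector-only flanks 10. With fewest neighbours, 0 to 4 coding genes, the LGP2-only share of flanks was 55.6% (n = 239), and with 5 to 9 it was 52.0% (n = 467). It was 62.5% with 10 to 14 genes (n = 381), 64.2% with 15 to 19 (n = 226), 66.5% with 20 to 29 (n = 257) and 67.8% with 30 or more (n = 214). Regions outside the flanks passed from 51.9% in the lowest class to 64.9% in the highest. Within these 6 classes, chosen after seeing the data, the odds ratio of flanks against other regions was 1.09, with an interval of 0.985 to 1.20 that includes 1. Among regions with 5 or more reads in the calling library, the LGP2-only share of flanks was 58.2% (53.6 to 62.7, n = 469), below their share without a read minimum, and that of other regions was 47.6% (46.4 to 48.8, n = 6624). The odds ratio was then 1.54 (1.26 to 1.87), and 1.29 (1.07 to 1.57) within the same classes. The part of gene density in the split was not tested beyond these values.

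**Figure D2:**
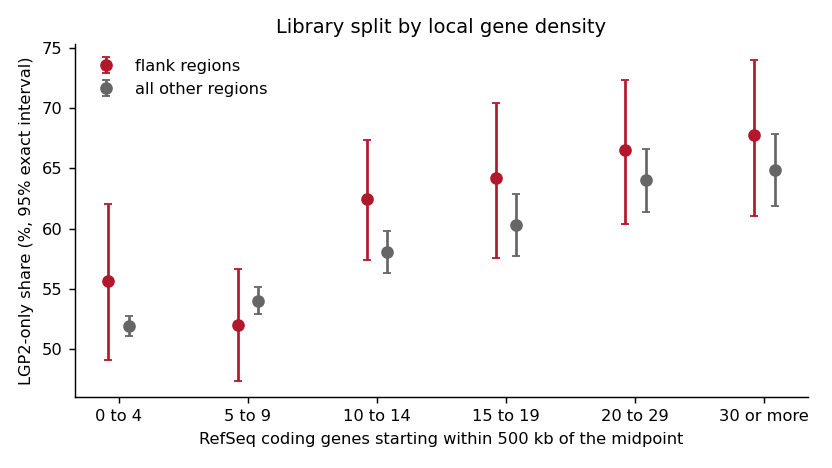
LGP2-only share in percent of regions called in 1 library (y axis, with 95% exact intervals) against the number of RefSeq coding genes with their lower coordinate within 500 kb (x axis), for flank regions (red) and all other regions (grey). Flanks and other regions lie at 55.6% and 51.9% with 0 to 4 genes and at 67.8% and 64.9% with 30 or more, and their intervals overlap in every class.

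The split between the libraries did not differ between the sides of the start beyond counting error. Upstream, 554 regions were LGP2-only, 369 vector-only and 2 shared, and downstream the numbers were 521, 340 and 2. The LGP2-only share was 60.0% (56.8 to 63.2) upstream and 60.5% (57.2 to 63.8) downstream, with an odds ratio of 0.980 (0.807 to 1.19). In the 1-2 kb class alone the odds ratio was 0.916 (0.700 to 1.20) and in the 2-3 kb class 1.06 (0.798 to 1.42). The interval over all flanks leaves room for odds from 0.807 to 1.19 times as high upstream. The distance class separated the libraries somewhat more: the LGP2-only share was 62.6% (59.4 to 65.6) at 1-2 kb and 57.5% (54.0 to 60.9) at 2-3 kb, an odds ratio of 1.24 (1.02 to 1.502) that was 1.23 (1.01 to 1.49) within the classes of gene density. The 2-3 kb class did not stand apart from the regions outside the flanks beyond counting error (odds ratio 1.12, 0.972 to 1.30), and the 1-2 kb class did (1.39, 1.21 to 1.59).

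**Figure D3:**
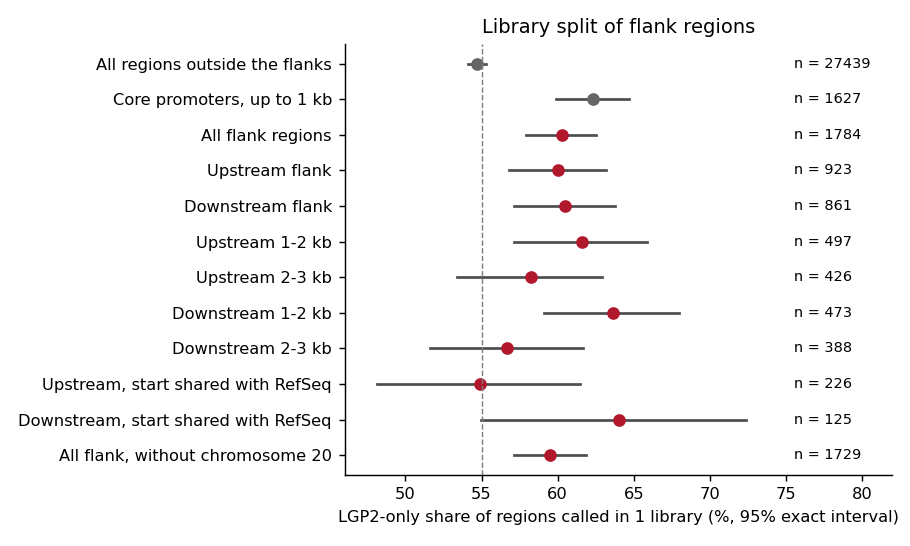
LGP2-only share in percent of the regions called in 1 library (x axis, points, with 95% exact intervals as lines) for flank groups (red) and 2 comparison groups (grey), with the number of regions at the right and all regions together as a dashed line. Upstream and downstream flanks lie at 60.0% and 60.5%, the 1-2 kb classes lie to the right of the 2-3 kb classes, and regions outside the flanks lie at 54.7%.

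Upstream and downstream regions were about equally many. The upstream share was 51.7% (49.4 to 54.1) over all flanks, 51.5% among LGP2-only regions and 52.0% among vector-only regions. In core promoters the balance lay on the other side, with 739 of 1631 upstream, or 45.3% (42.9 to 47.8). The flank balance depended on which start the region was assigned to. Of the 353 flank regions at starts shared with RefSeq, 227 were upstream and 126 downstream, an upstream share of 64.3% (59.1 to 69.3). At the other annotated starts with a RefSeq window for the symbol, 508 were upstream and 535 downstream (48.7%, 45.6 to 51.8). The odds ratio between these kinds of start was 1.90 (1.47 to 2.46). At shared starts the upstream share was 60.8% (53.7 to 67.5) for LGP2-only and 69.4% (61.3 to 76.7) for vector-only regions, intervals that overlap.

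Most upstream flanks were not upstream of the gene. Of 901 upstream regions whose symbol was a RefSeq coding gene, 580 (64.4%) had their midpoint inside that gene, and of 845 downstream regions 780 (92.3%) did. The share inside the gene among upstream regions was 64.4% for LGP2-only and 64.3% for vector-only regions. The transcript that gave the start was protein-coding for 862 regions, a retained-intron transcript for 408, a processed transcript for 398, a target of nonsense-mediated decay for 117 and of non-stop decay for 3. The LGP2-only share was 61.8% (58.5 to 65.1) at coding transcripts, 64.1% (59.3 to 68.8) at retained-intron transcripts and 53.8% (48.7 to 58.7) at processed transcripts. Of the 863 downstream regions, 124 lay past the end of their short transcript.

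The reads behind each call were few. The median flank region had 3 LGP2 reads and 2 vector reads in its window of 2 kb, 5 in all, with a range of 2 to 17. The LGP2-only flanks held 4 LGP2 reads (2 to 9) and 1 vector read (0 to 7) at the median, and the vector-only flanks 1 LGP2 read (0 to 6) and 4 vector reads (2 to 14). The most frequent pair was 3 LGP2 reads and 1 vector read, at 123 regions. The vector library had no read at 211 of the LGP2-only regions (19.6%), and the LGP2 library had none at 231 of the vector-only regions (32.6%). A count of 0 allows up to 3 reads, so a region with 3 or fewer reads in one library and 0 in the other shows no fold at this depth. In 139 of 1788 flank regions the sign of the log2 ratio went against the library of the call. Equal reads gave a slightly positive ratio in the deposited densities. Vector-only regions with equal reads are therefore counted here, and LGP2-only regions with equal reads are not. The calling library had 5 or more reads at 470 regions (26.3%). The whole table was alike, with a median of 5 reads in all. Over all 29302 regions, 2149 had a sign against the call, and 24.3% had 5 or more reads in the calling library. The vector library had no read at 21.7% of all LGP2-only regions, and the LGP2 library none at 33.6% of all vector-only regions.

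**Figure D4:**
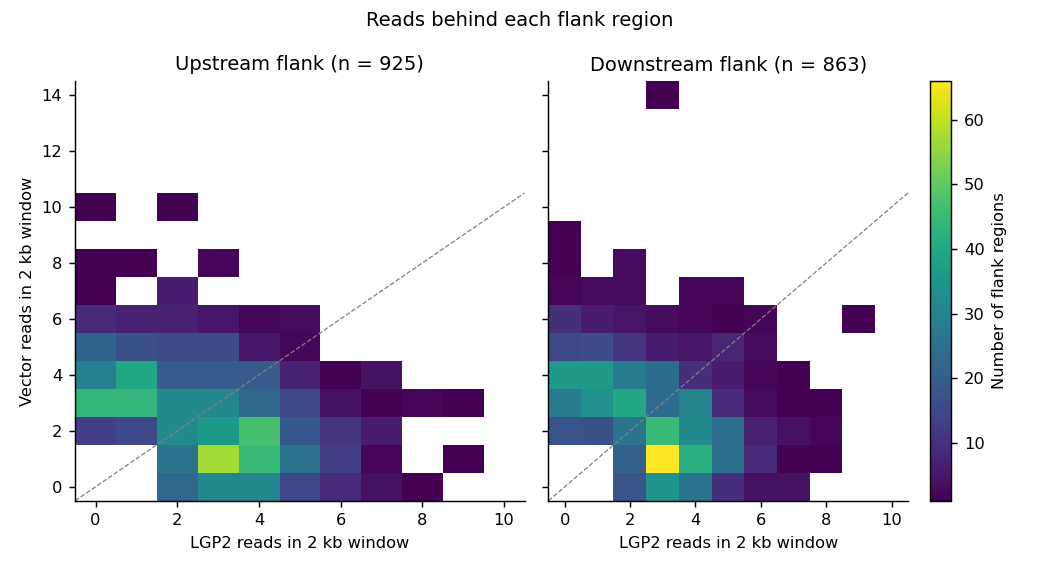
Number of flank regions (colour) with each pair of LGP2 reads (x axis) and vector reads (y axis) in the 2 kb window, upstream (left, n = 925) and downstream (right, n = 863), with equal reads as a dashed line. In both panels the regions crowd near 3 LGP2 and 1 vector reads and near 1 LGP2 and 3 to 4 vector reads, and a lone region downstream reaches 14 vector reads.

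The highest read numbers were spread over 7 regions with 9 or more reads in a library, named here after their values were seen. VPS50, whose product acts in endosomal recycling, had 3 LGP2 reads and 14 vector reads in a downstream region. CTPS1, which makes CTP, had 2 LGP2 reads and 10 vector reads upstream. RASGEF1C, a guanine nucleotide exchange factor gene, had 9 LGP2 reads and 1 vector read upstream. The homeobox gene DLX5 had 9 and 6 downstream, and C2CD2 had 9 and 3 upstream. AIM2 and RBM15B, described next, completed the set. All of these but DLX5 had at least 3 times as many reads in the calling library.

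On the log2 ratio of LGP2 to vector density, with 1 read added to each library, 579 flank regions were at least 2-fold higher with LGP2 and 383 at least 2-fold lower. The shares were 32.4% (30.2 to 34.6) and 21.4% (19.5 to 23.4), against 29.5% and 25.2% of all regions. The 579 and the 383 both include regions with 3 or fewer reads against 0, which show no fold against the floor. Among them, 66 flank regions had 3 LGP2 reads and 0 vector reads, and 72 had 0 and 3. Upstream there were 298 higher and 199 lower, and downstream 281 and 184. The median log2 ratio was 0.18 upstream and 0.40 downstream, and it was 0.46 in the 1-2 kb class and 0.16 in the 2-3 kb class. With so few reads the ratio takes a small set of values, and these differences between medians were not tested. Over all flank regions the median was 0.40, against 0.15 over all regions. With every library that had 0 reads set at 3 reads, the flank median was 0.15, the value that 3 reads in each library give. No median with this floor is given over all regions, so the floored flank value cannot be set against the background. The counts past 2-fold turned on the scaling: with the ratios centred on their median over all regions, a shift of 0.15, there were 456 higher and 463 lower flank regions. Over all regions there were then 6868 higher and 8841 lower.

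Regions were named by a rule that uses the ratio itself, so their values are a description. It took, on each side, the 5 LGP2-only and the 5 vector-only regions with the largest log2 ratio, and every region called in both libraries. Folds are given against the floor of 3 reads per library, since each of these 20 regions had 0 reads in the library that had not called it. They divide the reads of the calling library by 3. They are not lower bounds, since the calling count has its own counting error. Sides and distances refer to an annotated transcript start, which need not be the start of the gene. Among the 20, the start was matched to RefSeq within 100 bp only for ALLC, STH, DEFB115, ACOX3, CDKN2AIPNL, TRIM42 and RBM15B.

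Upstream and LGP2-only, the leading region lay 2640 bp before a processed transcript of PEAK1, an atypical kinase gene (chr15:77287530-77287950). It had 8 LGP2 reads (95% exact Poisson interval 3.45 to 15.8) and 0 vector reads (up to 3.69), or 2.67-fold higher against the floor. A region 1926 bp upstream of ALLC, the human allantoicase gene, had 7 LGP2 reads and 0 vector reads, and a neighbour whose midpoint lay 662 bp away had 5 and 0. The windows of that pair overlap, so that they can share reads. Regions with 7 LGP2 reads and 0 vector reads also lay upstream of annotated starts of NUP93, a nuclear pore component, of STH, which encodes saitohin, and of TERT, the catalytic subunit of telomerase. The NUP93 start was not matched to RefSeq. Each is 2.33-fold higher against the floor. The TERT region (chr5:1267859-1268326) lay 1569 bp before a retained-intron transcript, away from the RefSeq start. A separate TERT region at 2405 bp had 4 and 3 reads.

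Upstream and vector-only, AIM2, a sensor of cytosolic DNA in the inflammasome, had 0 LGP2 reads and 10 vector reads (4.80 to 18.4) at 1913 bp (chr1:159142213-159142628). It was 3.33-fold lower with LGP2 against the floor. DEFB115, a beta-defensin gene, had 0 and 8 at 1501 bp, and ENTPD6, a nucleotide hydrolase gene, had 0 and 7 at 2498 bp. Both lie on chromosome 20, where 9 of 55 flank regions were vector-only. ACOX3, a peroxisomal acyl-CoA oxidase, and ADAMDEC1, an ADAM-like protease, had 0 and 6 each. The AIM2, ENTPD6 and ADAMDEC1 starts were not among those matched to RefSeq. Those of ENTPD6 and ADAMDEC1 belong to processed transcripts.

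Downstream and LGP2-only, CDKN2AIPNL (1802 bp), SKOR2, a transcriptional corepressor gene (1383 bp), and TRIM42 (1137 and 1973 bp) had 7 LGP2 reads and 0 vector reads at each region. The midpoints of the TRIM42 regions were 836 bp apart, so their windows overlap and they are not independent measurements. IFT122, a component of intraflagellar transport, had 6 and 0 2438 bp past the start of a retained-intron transcript.

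Downstream and vector-only, RBM15B, an RNA-binding protein of the m6A methyltransferase complex, had 0 LGP2 reads and 9 vector reads (4.12 to 17.1) at 2206 bp (chr3:51393345-51393637). It was 3-fold lower with LGP2 against the floor. INPP5K, a phosphoinositide phosphatase gene, had 0 and 8 at 2818 bp. CKAP5, which promotes microtubule growth, and WWP1, a ubiquitin ligase, had 0 and 7, and the metalloprotease gene ADAMTS10 had 0 and 6. The Poisson intervals of the 2 libraries overlapped in 9 of the 10 upstream regions, all but AIM2, and in 9 of the 10 downstream regions, all but RBM15B.

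The 4 regions called in both libraries had 3 to 5 reads in each. IGDCC4, an immunoglobulin superfamily gene, had 5 LGP2 reads and 3 vector reads 3084 bp upstream. FDFT1, the squalene synthase gene, had 4 and 3 at 1466 bp upstream. TNP2, a transition protein of sperm chromatin, had 3 and 4 at 1282 bp downstream, and THOC5, a subunit of the THO complex in mRNA export, had 3 and 4 at 3225 bp downstream. Their Poisson intervals overlapped widely, and no direction can be read from them.

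**Figure D5:**
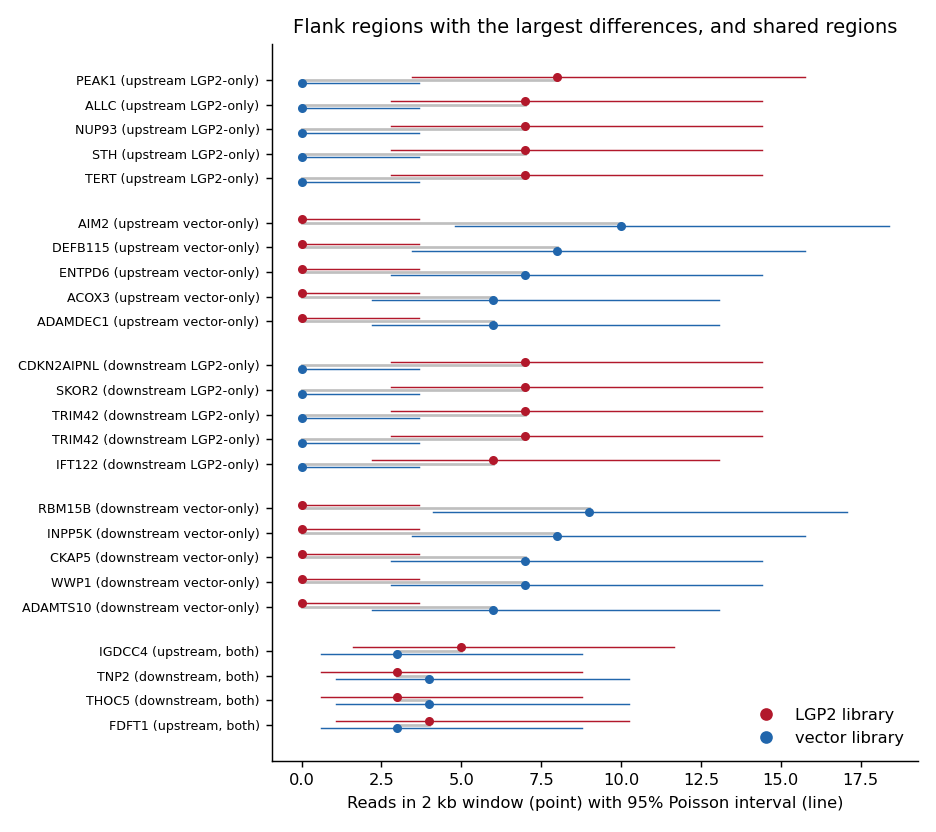
Reads in the 2 kb window (x axis) with 95% exact Poisson intervals for each named region (y axis, gene with side and library set), LGP2 library in red and vector library in blue. The upper 4 blocks were chosen for their ratio and have 0 reads in one library and 6 to 10 in the other, while the 4 shared regions have 3 to 5 in each.

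Genes with several flank regions could hold calls from either library. Of the 1652 genes, 1524 had 1 flank region, 120 had 2 and 8 had 3. Among the 128 with 2 or more, 60 had regions on both sides of a start, 59 had regions called in different libraries and 57 had log2 ratios of both signs. Over all flank regions 60.1% were LGP2-only and 39.7% vector-only, and no expected number of mixed genes was set beside these counts. The first 6 of the 8 genes with 3 regions, in alphabetical order, are described. One is EHMT1, a histone H3 lysine methyltransferase gene, where all 3 regions were LGP2-only, with 3, 4 and 4 LGP2 reads against 0, 0 and 1 vector reads. At HPN, the gene of the serine protease hepsin, all 3 were vector-only, with 1, 1 and 2 LGP2 reads against 4, 4 and 7. ANXA4, which encodes an annexin, had LGP2-only regions with 5 and 1 and with 7 and 1 reads, and a vector-only region with 1 and 4. CFAP44, a gene of the ciliary axoneme, had vector-only regions with 1 and 8 and with 1 and 6 reads, whose windows overlap, and an LGP2-only region with 3 and 3. The giant gene CSMD1 had 2 LGP2-only regions, each with 3 and 1 reads, and a vector-only region with 2 and 4. KSR2, a scaffold of the Ras pathway, had 3 and 2, 0 and 4, and 3 and 4 reads.

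Neighbouring calls show how little separated some library sets, with examples chosen after their values were seen. There were 23 pairs of flank regions with overlapping windows, each pair in 1 gene. In 10 of them the members were called in different libraries and in 13 in the same library. No expected number was set beside these counts. At SCNN1B, an epithelial sodium channel subunit, an LGP2-only and a vector-only region 502 bp apart both had 2 LGP2 reads and 3 vector reads. At TCTN2 both members of such a pair had 3 and 4. Pairs with both members called in the LGP2 library included ALLC, TRIM42 and GET4, the last with 8 and 1 and with 7 and 3.

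The regions nearest the limits of the rule are given as a description. Just inside 1 kb lay a CSMD1 region with its edge at 1001 bp and 3 LGP2 and 1 vector reads, and a CAMK2G region at 1003 bp with 1 and 4. Just outside lay NOS3 at 1000 bp with 6 and 1, and MDH1B at 999 bp with 0 and 6. At the 3 kb limit SLC7A7 (2999 bp) had 0 and 2 and DNAH12 (2995 bp) had 3 and 1, while METRNL (3002 bp) had 4 and 2 and EIF2A (3006 bp) had 1 and 6. The windows of 814 flank regions (45.5%) reached within 1 kb of their start, and 233 of the flank genes also had a core region.

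Chromosome 20 and the X chromosome lay farthest apart. On chromosome 20, 46 flank regions were LGP2-only and 9 vector-only, 83.6% (71.2 to 92.2), and the other regions of that chromosome stood at 76.4%. On the X chromosome 7 were LGP2-only and 22 vector-only, 24.1% (10.3 to 43.5), beside 40.9% for its other regions. The flank share was 71.6% on chromosome 15, 69.6% on 22 and 41.1% on 4. Without chromosome 20 the flank share was 59.5%, and the odds ratio against other regions was 1.25 (1.13 to 1.38). Within chromosomes it was 1.18 (1.07 to 1.31).

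Gene groups are described by their counts, beside 60.1% LGP2-only among all flank regions and 54.9% among all regions. Neither DHX58 nor CXCL1, a chemokine gene that the study followed, had a flank region. In the list of 26 genes around RIG-I-like receptors, 2 had a flank region. CYLD, a deubiquitinase that restrains the pathway, had 3 LGP2 reads and 0 vector reads, and STING1, an adaptor of cytosolic DNA sensing, had 2 and 1. Of 42 interferon-stimulated genes 4 had 5 regions, 3 of them LGP2-only. OAS1, an activator of RNase L, had 2 and 3 reads at both of its vector-only regions, which overlap in their windows. CMPK2 had 4 and 3, and GBP2 had 2 and 4 although called with LGP2. IFI27, the last of the list by reads and named beyond the rule, had 4 and 0. Among 34 chemokine and cytokine genes, 3 had regions: IL15, a cytokine of NK and T cells, had 4 and 2 upstream and 1 and 4 downstream. LIF had 1 and 3, and IL1A had 3 and 0. Of 23 NF-kB pathway genes 2 had a region, TAB1 with 4 and 0 and TAB3 with 2 and 0, both partners of the kinase TAK1. No group here holds more than 5 regions, too few to set against the background.

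Genes of acylation and chromatin were divided between the libraries. The crotonylation list had 2 of 27 genes with a region, ACOX3 and YEATS2, the latter a reader of acylated histones with 2 reads in each library. Of 49 chromatin regulators 10 had 11 regions, 5 LGP2-only and 6 vector-only, with 2 at least 2-fold higher and 4 at least 2-fold lower. Among the 4 regions with most reads, CHD7, a chromatin remodeller gene, had 3 LGP2 reads and 4 vector reads in a vector-only region, and the histone demethylase gene KDM4B had the same numbers in an LGP2-only region. SETD1A and KMT2A, both histone H3 lysine 4 methyltransferase genes, had 2 and 5 and 1 and 5 in vector-only regions. Histone genes, 92 in all, had no flank region.

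Of 31 glioma driver genes, TERT and TACC3 gave 3 LGP2-only regions, the TACC3 region with 2 LGP2 reads and 0 vector reads. In the mesenchymal and astroglial list 3 of 30 genes had 5 regions, all vector-only. FN1, which encodes fibronectin, had 1 and 5 and 2 and 4 reads downstream, COL4A2, a basement membrane collagen, had 1 and 3 upstream, and SLC1A2, a glutamate transporter of astrocytes, had 0 and 4 and, in a region beyond the rule, 2 and 2 downstream. Cell cycle genes were split, with CCNE1 (cyclin E1) at 6 and 1 reads and POLE at 3 and 1, against CDC25B at 1 and 4 and MCM3 at 0 and 3. The median log2 ratio of these 4 was −0.03 and changed sign to 0.56 with libraries at 0 reads set at 3.

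Families defined by their symbols are given next. The 136 potassium, sodium and calcium channel genes had 22 flank regions, 16 LGP2-only and 6 vector-only, with a median log2 ratio of 0.75. KCNMB3 had 8 LGP2 reads and 3 vector reads upstream, KCNIP1 had 3 and 5 upstream, KCNJ6, on the vector side, had 1 and 7 downstream, and KCNK9 had 4 and 4 upstream. The 44 collagen genes had 11, of which 4 were LGP2-only and 7 vector-only, with a median of −0.47. COL15A1 had 3 and 5, COL2A1 had 5 and 2 and COL14A1 had 5 and 1, all upstream, and COL22A1 had 5 and 3 downstream. Solute carriers had 20 LGP2-only and 16 vector-only regions, zinc finger genes of the ZNF series 15 of each, and olfactory receptor genes, which belong to the nasal epithelium, 9 and 10. Developmental transcription factors had 5 and 7, with HOXA4 at 2 and 7 and SOX30 at 3 and 5 reads upstream, and GATA5 and TBX1 at 6 and 2 each downstream. All 5 regions of TRIM ligase genes were LGP2-only and past 2-fold on the ratio with 1 read added, 2 of them the overlapping TRIM42 pair. The others were TRIM66 with 6 and 1, TRIM65 with 5 and 1 and, beyond the rule, TRIM59 with 2 and 0, which is under the floor of 3 reads. In the list of silent tissue-specific genes, SCGB1A1, a lung secretory protein gene, had 4 and 0, and the keratin gene KRT10 had 3 and 1. The lists overlap in single genes, such as KRT10, and with 1 library per condition none of these splits has a replicate check.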

How the data were processed

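ChIP-seq regions of T98G cells with an empty vector or with LGP2 were taken from 1 deposited table, which gives a normalized read density per region, a signal value, for each of the 2 ChIP libraries. The authors called regions in each library and merged those found in both. No aligner, caller, calling threshold or normalization tool is given in the sources used here. The labels name mm10, a mouse build, but the positions were human: of 1746 flank regions whose symbol was a RefSeq coding gene (GRCh38.p14), 99.3% had a transcript overlapping that gene. Coordinates were read as GRCh38. The deposited columns of the authors' own comparison (a log2 ratio, a mean log2 level and a p-value) were not used.

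The deposited densities gave whole reads for both libraries in 100% of regions (tolerance 0.001 reads), as (reads + 1) in an inferred window of 2 kb after removal of a straight line in the mean log2 level (intercept 0.105, slope 0.0452). Total library depth is unknown. The midpoint of a region served as its position. Shares have Clopper-Pearson intervals, reads Poisson intervals and odds ratios exact conditional intervals, or Mantel-Haenszel intervals within classes, all at 95%. No molecular identifiers are named, so that reads may be copies of one another, and intervals cover counting error only. Named regions were, per side, the 5 LGP2-only and 5 vector-only regions with the largest absolute log2 ratio (ties by level, then alphabet), shared regions up to 10, up to 6 genes (alphabetically) with 3 or more regions, and up to 4 regions with most reads per list, while the text says where it names others. The members and the 25 gene lists were chosen with earlier results of these data known, and the count of the list of silent tissue-specific genes is not reported here. Alternatives were the pseudocount, read minimum, scaling, distance class, start annotation and strata. Scripts used Python 3.11.15, pandas 2.3.3, scipy 1.17.1 and statsmodels 0.14.6, and were tested on simulated data.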

Additional observations from a re-analysis of the deposited data

How the results depend on the processing

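The count of flank regions at least 2-fold higher with LGP2, 579, was 134 with 5 reads added to each library and 292 among regions with 5 or more reads in all, and the count at least 2-fold lower, 383, was 8 and 215. With 5 reads added, 5 reads against 0 are exactly 2-fold, and the line that was kept moves such regions past the limit in one direction and short of it in the other. Among flank regions past 2-fold, the share higher with LGP2 was 60.2% as reported, 94.4% with 5 reads added, 49.6% with the ratios centred on their median (shift −0.15) and 72.2% with scaling on regions of the other library (shift 0.33). Over all regions past 2-fold, the same shares were 53.9%, 92.7%, 43.7% and 66.2%. The odds ratio of flanks against other regions, 1.26, was 1.54 at 5 or more reads, 1.09 within classes of gene density and 1.12 for the 2-3 kb class. The strata of gene density and chromosome, and gene density with 5 or more reads, were chosen after seeing the data. The LGP2-only share was 62.6% in the 1-2 kb class and 57.5% in the 2-3 kb class. With starts shared with RefSeq alone, the upstream share was 64.3% and the odds ratio of upstream against downstream was 0.685 (0.424 to 1.10). The cause of these shifts was not tested. The other 21 values moved by less than their interval or 1.5 times. The odds ratio of upstream against downstream, 0.980, passed to the other side of 1 in the 2-3 kb class (1.06) and within classes of gene density (1.01), with intervals that include 1 in each case, and centring on the median turned the higher majority of flank regions past 2-fold into 456 higher against 463 lower. No paired analysis was possible because each group holds 1 library, and no replicate could be left out. Depth limits every single region: the median is 5 reads over both libraries.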

Other observations

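Flank regions of other gene groups gave few reads each. Cadherin and protocadherin genes had 7 flank regions, 5 of them LGP2-only, with CDH4 at 7 LGP2 reads and 1 vector read and CDH2, the N-cadherin gene, at 5 and 2. CDH5, the vascular cadherin gene, had an LGP2-only region with 6 and 2 reads and a vector-only region with 1 and 4, both upstream. Genes of the mitochondrial ribosome and respiratory chain had 5 LGP2-only and 2 vector-only regions, among them ATP5MF, a subunit of ATP synthase, at 0 and 6. Of the DEAD and DEAH box helicase genes, the family of RNA helicases to which DHX58 (LGP2) belongs by name, 4 had a flank region. Their regions were 3 LGP2-only and 1 vector-only. DHX40 had 4 LGP2 reads and 7 vector reads although called with LGP2, and DHX57, the vector-only one, had 1 and 4. DDX23 had 4 and 3 and DDX24 had 2 and 1, both LGP2-only. The 2 ribosomal protein genes with a region were RPL4, at 4 and 1, and RPL10A, at 3 and 2 although called with the vector. Single regions fell to the lists of housekeeping genes (SDHA, 3 and 2 reads, vector-only) and proteasome subunits (PSMB10, 2 and 3, vector-only), and keratin genes had KRT23 at 2 and 5, vector-only, beside KRT10 at 3 and 1.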
